A study of Oryza sativa with 8 samples.

Results

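The phytocassane gene cluster of rice is a run of 10 loci on chromosome 2 that encode enzymes of diterpenoid phytoalexin synthesis. The 10 loci were taken by their RAP locus numbers, Os02g0569000 to Os02g0571900, from the probe names of the array, which holds 29689 loci in all. They were represented by 13 probes of 1 spot each. RNA came from whole roots of the rice cultivar Koshihikari after 10 days in nutrient solution with 1 mM NH4Cl (4 biological replicates) or with 0.005 mM NH4Cl (4 biological replicates), 1 single-colour Cy3 array per RNA. No genotype other than the cultivar and no other treatment was named in the labels. The comparison asked how the loci along the cluster differed between ample and scarce ammonium, and every change is given as 1 mM minus 0.005 mM.

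Phytocassanes are antimicrobial diterpenoids that rice makes after fungal attack and also releases from roots. Their synthesis starts in the plastid, where CPS2 folds geranylgeranyl diphosphate into ent-copalyl diphosphate. KSL7, a kaurene synthase-like enzyme, turns that into ent-cassadiene, and cytochrome P450 enzymes of the CYP71Z and CYP76M families then oxidise the hydrocarbon. The genes of these enzymes lie side by side, a well-known case of a plant biosynthetic gene cluster.

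At 1 mM, transcripts of 3 P450 loci and of KSL7 were lower than at 0.005 mM, and the transcript of 1 P450 locus, CYP76M8, was higher. CYP76M5 was at least 19.4-fold lower, CYP76M6 4.76-fold lower and CYP71Z7 2.06-fold lower. With normexp background correction and quantile normalization CYP76M5 was 5.81-fold lower and CYP76M6 2.97-fold lower. The bound of CYP76M5 was computed for the reported processing, and the normexp setting gave a smaller fold. KSL7 was 3.08-fold lower in the fit, with 2 of its 4 arrays at 1 mM well above background, but 1.92-fold lower with dim signals raised to the array's floor (its lowest signal well above background) and 1.32-fold lower with normexp background correction and quantile normalization. CYP76M8 was 7.22-fold higher in the fit, with 1 of its 4 arrays at 0.005 mM well above background, but 4.57-fold and 2.11-fold higher under the same 2 settings. CPS2, CYP71Z6 and the KSL locus Os02g0571300 were not well above background on any of the 8 arrays, and the changes of the KSL locus Os02g0571800 and the P450 locus Os02g0569900 did not pass the test. Of the 10 loci, 7 were therefore tested, 4 of them lower, 1 higher and 2 not past an adjusted p of 0.05. Over all 24973 units tested (1 probe per locus, kept where at least 4 of the 8 arrays gave a signal well above background), 43.8% were lower and 32.2% were higher by the same rule, 76.1% in either direction. A call as such was therefore common. A decrease of at least 2-fold that passed the test was found in 8.67% of all units, and an increase of that size in 9.85%. The 4 lower loci and the higher one were all past 2-fold in the reported fit, although KSL7 and CYP71Z7 were not under some alternative settings. The values of the groups did not overlap at 5 of the 7 loci, and they did not overlap in 71.6% of all units. The median change over the 7 tested loci was -1.04 in the reported fit, against a median of -0.09 over all units. Placing CYP76M5 at its bound could not move this median, because that locus stays the lowest. The median locus was KSL7 with signals raised to the floor (-0.94) and with normexp and quantile normalization (-0.40). The median of the 7 thus depended on how dim signals were treated. CYP76M5 passed the filter only through the arrays on which it was high, and the 4 arrays of the higher group alone were also enough for CYP76M8 and KSL7, so these counts describe the 7 loci and support nothing about the other 3.

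Locus names were taken from the place of each gene along the chromosome in a RefSeq gene table, which lists exactly 10 protein-coding genes from CYP76M5 to CYP76M6. The order fixed CYP76M5, CYP76M8, KSL7, CYP71Z6, CYP71Z7, CPS2 and CYP76M6. The names KSL5 and KSL6 could not be settled between Os02g0571300 and Os02g0571800, because the list used to choose the loci and the table give them in opposite order. The P450 locus Os02g0569900 had no symbol at its place in the table. Those 3 are called by their locus numbers.

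The arrays were alike in detection and saturation, but their 75th percentile was lower at 1 mM. Relative to spiked control RNA it was -1.12 to -0.88 at 1 mM and -0.68 to -0.57 at 0.005 mM on the log2 scale. Between 81.6% and 85.1% of the 43734 non-control spots were well above background at 1 mM, against 81.4% to 83.7% at 0.005 mM, no such spot was saturated, and the 75th percentile of the processed signal was 3202 to 3625 at 1 mM and 3848 to 4190.5 at 0.005 mM. The 3 root markers, among them the silicon transporters Lsi1 and Lsi2, were well above background on all 8 arrays. Lsi1 fell by 0.77 ± 0.08 and Lsi2 by 0.99 ± 0.07, Os02g0662000 rose by 0.94 ± 0.07 (SE), and the summed level of the 3 was 122 to 127 at 1 mM and 110 to 119 at 0.005 mM in multiples of each array's 75th percentile. The 5 green tissue markers (Rubisco small subunits and chlorophyll a/b-binding proteins) were also above background on all arrays, and none was at 0. In their brightest probe all 5 rose at 1 mM, with summed levels of 176 to 212 against 65.5 to 80.2 at 0.005 mM. The groups overlapped for CAB1R (Os09g0346500), where 5 of 6 kept probes were higher. For Os12g0292400, 1 of 2 kept probes was higher. The part of the green marker rise in the changes of the cluster was not tested. In whole roots, fewer cells of a type and less RNA per cell cannot be told apart. The 4 arrays at 1 mM shared 1 slide and the 4 at 0.005 mM another, so the slide cannot be told apart from the ammonium supply.

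**Figure D1:**
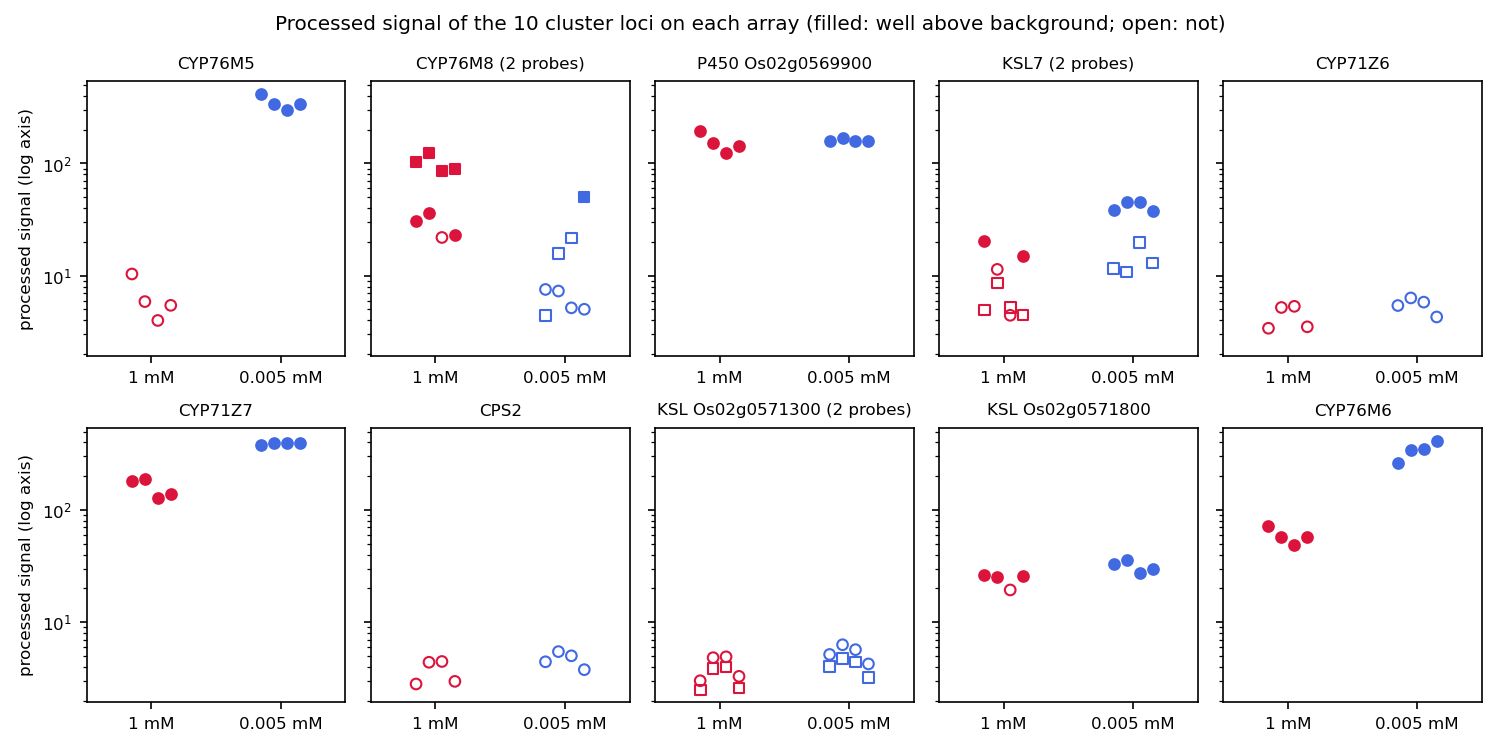
Processed signal (scanner units, log axis) of the probes of the 10 loci, in chromosomal order, on the 4 arrays at 1 mM (red, left) and the 4 arrays at 0.005 mM (blue, right). Each point is 1 array, filled where the spot was well above background; where a locus has 2 probes they are drawn as circles and squares. CYP76M5, KSL7, CYP71Z7 and CYP76M6 sit lower at 1 mM, and both the circles and the squares of CYP76M8 sit higher. The circles of CYP76M8 were not tested, and levels of different probes are not comparable.

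The enzyme that opens the pathway gave no signal well above background. The CPS2 probe (Os02g0571100) read 2.81, 4.39, 4.46 and 2.97 processed signal units on the 4 arrays at 1 mM, against 4.43, 5.47, 5.02 and 3.77 at 0.005 mM. All 8 readings were below the lowest signal of any spot well above background on the same array, which was 11.5 to 18.9 units at 1 mM and 15.4 to 22.5 units at 0.005 mM. CPS2 was therefore not tested, and a difference between the groups was not detectable at this signal.

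The kaurene synthase-like loci follow CPS2 in the pathway. KSL7 (Os02g0570400), which makes ent-cassadiene, read 20.4, 11.4, 4.43 and 15.1 units at 1 mM, against 38.3, 45.2, 45.3 and 37.9 units at 0.005 mM. All 4 arrays at 1 mM were below all 4 at 0.005 mM, but only 2 of the 4 were well above background. On the log2 scale relative to the 75th percentile, KSL7 averaged -8.23 ± 0.90 at 1 mM and -6.61 ± 0.17 at 0.005 mM (SD, n = 4 each), a change of -1.62 ± 0.40 (SE; limma adjusted p = 0.0056). The size of that change depended on how dim signals were treated. It was -0.40 after normexp background correction with quantile normalization and -0.94 with signals below the floor raised to it, both lower at 1 mM and both past the threshold. A second KSL7 probe for the same transcript was above background on no array and was not tested, with 4.94, 8.59, 5.22 and 4.47 units at 1 mM and 11.6, 10.8, 19.8 and 12.9 units at 0.005 mM.

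The other KSL loci belong to the same enzyme family and act on the same ent-copalyl diphosphate. Os02g0571800, whose probe name carries the tag 5′ UTR and coding sequence, read 26.2, 25.1, 19.4 and 25.8 units at 1 mM, against 33.3, 36.1, 27.3 and 29.9 units at 0.005 mM. Relative to the 75th percentile its change was -0.12 ± 0.10 (SE; adjusted p = 0.266), which did not pass the test, and its scaled values overlapped. Without scaling between arrays it was called lower at -0.39 (adjusted p = 0.0142), and scaled to spiked control RNA it was called lower at -0.50 (adjusted p = 0.0025). Those scalings moved the median of all units to -0.36 and -0.47, against -0.09 as reported, so relative to it this locus stayed close to the typical unit. Both probes of Os02g0571300, 1 of them tagged with the 5′ UTR and 1 with the 3′ UTR, were above background on no array, with 2.49 to 4.91 units at 1 mM and 3.22 to 6.29 units at 0.005 mM.

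Among the P450 loci, CYP76M5 (Os02g0569000) differed most. It read 10.4, 5.87, 3.99 and 5.44 units at 1 mM, against 416, 341, 300 and 339 units at 0.005 mM. It was well above background on all 4 arrays at 0.005 mM and on none at 1 mM, so only a bound can be given for the lower group. With each 1 mM array set at the higher of its own reading and the lowest signal well above background there, the transcript was at least 19.4-fold lower at 1 mM (limma adjusted p of the fitted difference 2.23e-07, and 3.11e-07 with signals raised to the floor). The measured means were -9.12 ± 0.50 at 1 mM and -3.54 ± 0.15 at 0.005 mM (SD, n = 4 each). Normexp with quantile normalization gave a change of -2.54 (5.81-fold lower). That is smaller than the bound, which holds for the reported processing only.

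CYP76M6 (Os02g0571900), a P450 known to act on related diterpenes, lies at the far end of the cluster. It read 72.7, 57.4, 49.1 and 57.3 units at 1 mM, against 264, 340, 347 and 408 units at 0.005 mM, all well above background. The groups did not overlap, and the change was -2.25 ± 0.15 (SE; adjusted p = 3.05e-06), or -1.57 with normexp and quantile normalization. CYP71Z7 (Os02g0570700), which hydroxylates ent-cassadiene, read 181, 189, 128 and 138 units at 1 mM, against 379, 392.5, 395 and 392 units at 0.005 mM. The 4 arrays at 0.005 mM lay close together, and all 4 at 1 mM were below them. Its change was -1.04 ± 0.11 (SE; adjusted p = 3.18e-05).

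CYP76M8 (Os02g0569400), a multifunctional hydroxylase that accepts ent-cassadiene among other diterpenes, went the other way. Its kept probe, for transcript Os02t0569400-01, read 103, 125, 85.2 and 88.5 units at 1 mM, against 4.43, 15.8, 21.7 and 49.9 units at 0.005 mM. The groups did not overlap, but the arrays at 0.005 mM were spread widely and only 1 of them was well above background. The means were -5.08 ± 0.22 at 1 mM and -7.93 ± 1.49 at 0.005 mM (SD, n = 4 each), a change of 2.85 ± 0.65 (SE; adjusted p = 0.00401). Leaving out 0.005 mM replicate 1, the dimmest array, the change was 2.20 (4.59-fold), with signals raised to the floor it was 2.19 and with normexp and quantile normalization it was 1.08, all past the threshold. A second probe, for transcript Os02t0569400-02, read 30.5, 36.5, 21.9 and 22.9 units at 1 mM, against 7.54, 7.30, 5.17 and 5.02 units at 0.005 mM. It was above background on 3 arrays at 1 mM and on none at 0.005 mM, and so was not tested, but as a bound it was at least 1.69-fold higher at 1 mM.

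The remaining P450 loci showed no call. Os02g0569900 read 197, 152, 123 and 143 units at 1 mM, against 158, 170, 157 and 158 units at 0.005 mM. Its change was 0.18 ± 0.10 (SE; adjusted p = 0.116), with overlapping groups. Leaving out 1 mM replicate 3 it was called higher at 0.26 (adjusted p = 0.0195), which made 2 loci of the cluster higher, and normexp with quantile normalization also called it, at 0.14 (adjusted p = 0.0491). Without scaling and with spike-in scaling its sign turned, to -0.09 and -0.20, and neither passed the test. CYP71Z6 (Os02g0570500), which hydroxylates ent-isokaurene, read 3.40, 5.21, 5.33 and 3.50 units at 1 mM and 5.42, 6.33, 5.81 and 4.28 units at 0.005 mM, above background on no array. The CYP76M genes and the KSL genes are related in sequence, and cross-hybridisation between their probes was not tested.

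Several cluster probes were too dim to use. Of its 13 probes, 7 were kept and 5 were above background on none of the 8 arrays, whereas 84.6% of all 42477 probes were kept and 10.7% were above background on none. Most of the 13 probes carry the tag coding sequence and 3′ UTR in their names, a class of which 89.4% were kept. The position of the probes was not checked by sequence.

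**Figure D2:**
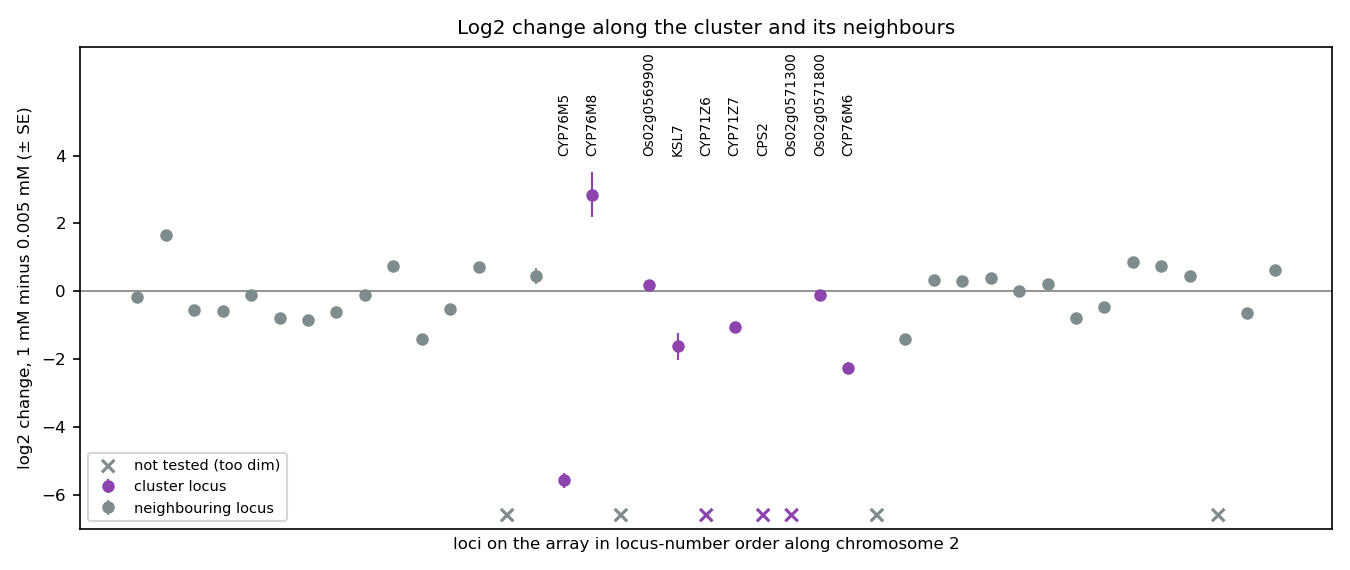
Log2 change (1 mM minus 0.005 mM, vertical axis, bars SE) of the cluster loci (purple) and of the 15 array loci on each side (grey), in order of locus number; crosses at the bottom mark loci too dim to test. CYP76M5 is drawn at its fitted value although only a bound holds for it, and CYP76M8, beside it, was well above background on 1 of 4 arrays at 0.005 mM. In the reported fit these are the lowest and the highest points, while with normexp and quantile normalization the flanking Os02g0566000 was above CYP76M8.

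Along the chromosome the changes did not form 1 block. In the order of the loci, CYP76M5 fell, CYP76M8 rose, Os02g0569900 was not called, KSL7 and CYP71Z7 fell, Os02g0571800 was not called and CYP76M6 fell, with the untested CYP71Z6, CPS2 and Os02g0571300 in between. One more array locus, Os02g0569600, lies between CYP76M8 and Os02g0569900 and was too dim to test. Of the 15 array loci before the cluster, 14 were tested, with 9 lower, 3 higher and a median change of -0.34. Of the 15 after it, 13 were tested, with 4 lower, 7 higher and a median of 0.30. Both sides together gave 13 lower and 10 higher of 27 tested, where 43.8% of all units were lower and 32.2% higher. The changes of the flanking loci ran between -1.42 (Os02g0572200, next to CYP76M6 among the tested loci) and 1.66 (Os02g0566000). CYP76M5, CYP76M6 and KSL7 were below that range and CYP76M8 above it in the reported fit. KSL7 lay inside the flanking range with signals raised to the floor (-0.94), with normexp and quantile normalization (-0.40) and without 1 mM replicate 3 (-1.20). With normexp and quantile normalization CYP76M8 (1.08) was below the flanking Os02g0566000 (1.32). Os02g0567200 fell by 1.40 ± 0.11 (SE; adjusted p = 6.04e-06) and Os02g0573400 rose by 0.87 ± 0.06 (SE; adjusted p = 4.81e-06). The split of the 30 flanking loci depended on the scaling: 10 were higher and 13 lower as reported, 6 and 15 without scaling, and 5 and 15 with spike-in scaling.

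The other diterpenoid genes were followed in 3 lists. The 9 genes of precursor supply provide geranylgeranyl diphosphate through the plastid isoprenoid pathway. Their median change was -0.02, with 1 higher, 3 lower and 5 not past the test, where 32.2% of all units were higher and 43.8% lower. The largest of these changes was that of Os07g0190000. It was listed as a deoxyxylulose phosphate synthase, the type of enzyme that starts the pathway, but the table gives no symbol for it. It read 548, 384, 268 and 324 units at 1 mM, against 3278, 2983, 2699 and 2600.5 units at 0.005 mM, a change of -2.70 ± 0.16 (SE; adjusted p = 1.84e-06). CMEK (Os01g0802100), a kinase of the pathway, and Os07g0580900 fell by 0.38 ± 0.06 and 0.32 ± 0.08. CLA1 (Os05g0408900), also listed as a deoxyxylulose phosphate synthase, was called higher at 0.13 ± 0.05 (adjusted p = 0.0386) in its brightest probe. However, 3 of its other 5 kept probes were lower, and the sign turned without scaling (-0.14) and with spike-in scaling (-0.25).

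Of the 11 genes of other diterpene routes, 10 were tested, with 3 higher, 5 lower, 2 not past the test and a median change of -0.23. The shares over all units were again 32.2% higher and 43.8% lower. CYP701A8 (Os06g0569500), a P450 of phytoalexin synthesis, read 55.5, 55.2, 43.7 and 39.6 units at 1 mM, against 239, 260, 264 and 232 units at 0.005 mM, and fell by 2.10 ± 0.10. KS1 (Os04g0611800), the ent-kaurene synthase of gibberellin synthesis, fell by 1.35 ± 0.07. Momilactones are the other main rice phytoalexins, made from a gene cluster on chromosome 4. MAS (Os04g0179200), whose product carries out a late step of momilactone synthesis, read 271, 279, 195 and 165 units at 1 mM, against 84.9, 86.6, 45.8 and 55.8 units at 0.005 mM, and rose by 2.02 ± 0.22. A further probe named for that locus was above background on no array. KSL4 (Os04g0179700), which makes the momilactone precursor, read 36.2 to 67.0 units at 1 mM and 13.4 to 18.1 units at 0.005 mM, where 1 array was well above background, and rose by 1.85 ± 0.17. The other 3 listed genes of that cluster are named after their values were seen: CYP99A2 rose by 1.29 ± 0.18, and CPS4 and CYP99A3 fell by 0.64 ± 0.11 and 0.84 ± 0.10. With normexp and quantile normalization the changes were -1.37 for CYP701A8, 1.31 for MAS and 0.60 for KSL4.

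All 8 genes of the regulator list passed the test, 5 higher and 3 lower, with a median change of 0.74, where 76.1% of all units passed, 32.2% higher and 43.8% lower. WRKY62 (Os09g0417800), a transcription factor described in rice as a repressor in defence, read 2119, 2178, 1592 and 1753 units at 1 mM, against 127, 105, 121 and 115 units at 0.005 mM. Every array at 1 mM was far above every array at 0.005 mM, and the change was 4.29 ± 0.10 (SE; adjusted p = 1.76e-08), or 3.70 with normexp and quantile normalization. WRKY76 (Os09g0417600), which is described in the same way, rose by 3.20 ± 0.16, and all 4 of its probes were higher. Os05g0322900 rose by 1.94 ± 0.16, also in all 4 of its probes. Os01g0196300 read 855, 766, 438 and 591 units at 1 mM, against 2471, 2204, 2136 and 2383 units at 0.005 mM, and fell by 1.57 ± 0.16. bZIP37 (Os04g0637000), named after its values were seen, encodes a bZIP factor described as TGAP1, an activator of diterpenoid phytoalexin genes, and fell by 1.51 ± 0.07. The rest of the list is also named after its values were seen. JAR1 (Os05g0586200), of jasmonate-isoleucine conjugation, rose by 1.28 ± 0.07. Os05g0343400 rose by 0.21 ± 0.08, and Os10g0575000 fell by 0.36 ± 0.13. No link between these regulators and the changes of the cluster was tested.

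**Figure D3:**
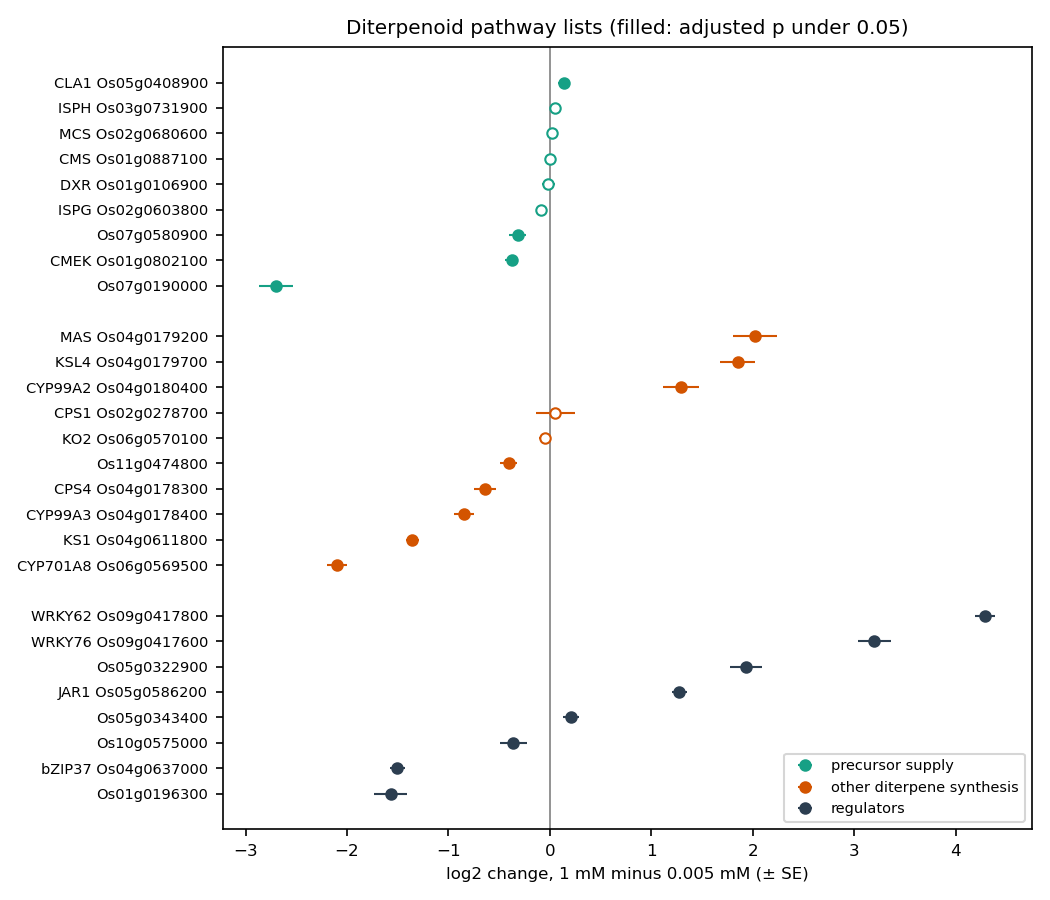
Log2 change (1 mM minus 0.005 mM, horizontal axis, bars SE) of the tested genes of precursor supply (green), other diterpene routes (orange) and regulators (dark), each list sorted by change; filled points passed an adjusted p of 0.05. Precursor genes other than Os07g0190000 lie near 0, momilactone genes lie on both sides, and WRKY62 and WRKY76 are farthest to the right.

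The authors' deposited table, which lists 28381 features at their false discovery threshold, holds 6 of the 13 cluster spots. That table lists 64.9% of all 43734 non-control spots, so being listed was common. Its log2 ratios, by its column names nitrogen sufficient over deficient, are -5.65 for CYP76M5, 2.24 and 2.29 for the CYP76M8 probes, -1.59 for KSL7, -1.17 for CYP71Z7 and -2.40 for CYP76M6, per the authors' deposited table. The remaining 7 spots, those of CPS2, CYP71Z6, both probes of Os02g0571300, Os02g0571800, Os02g0569900 and the second KSL7 probe, are not listed in the authors' deposited table.

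**Figure D4:**
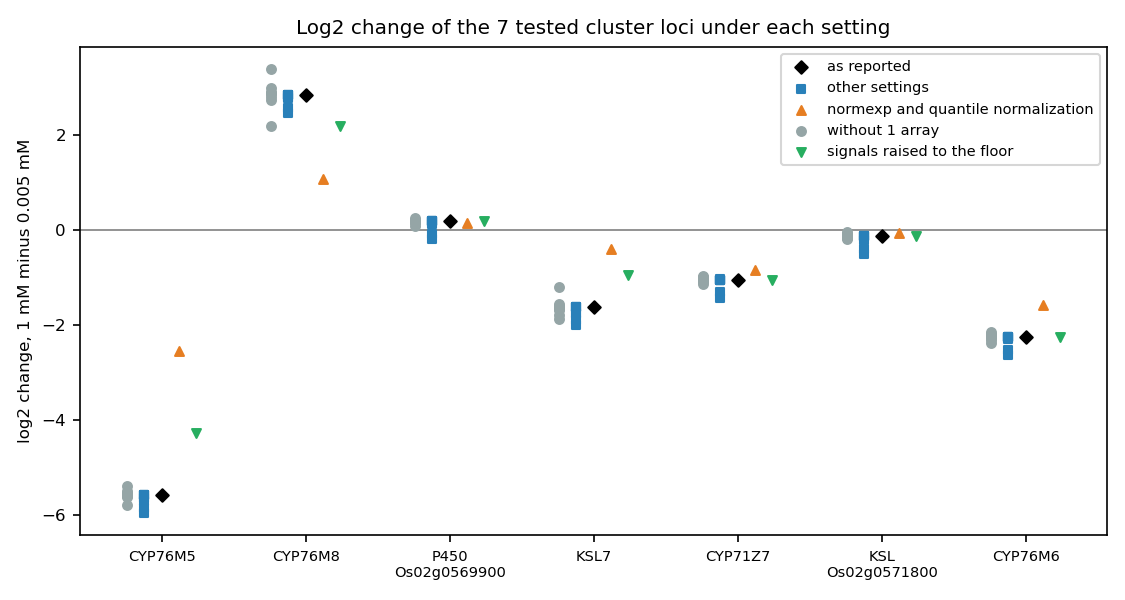
Log2 change (1 mM minus 0.005 mM, vertical axis) of the 7 tested cluster loci as reported (diamonds), under other settings (squares), with normexp and quantile normalization (up triangles), with signals raised to the floor (down triangles) and leaving out 1 array at a time (circles). The called loci keep their sign in every setting that tested them, while the size of the changes of CYP76M5, CYP76M8 and KSL7 moves most.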

How the data were processed

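Per the labels, RNA was labelled with Cy3 and each array read in 1 colour. Per the file headers, Agilent Feature Extraction 10.10.1.1 produced the deposited intensity values: the processed signal, which is background-corrected within the array, and the raw median spot and background signals. The authors' deposited table gives for each listed feature a log2 ratio with its p-value and q-value; its 8 columns of per-array values were not used.

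Control spots were left out. The log2 processed signal minus each array's 75th percentile was averaged per probe, probes well above background on at least 4 of 8 arrays were kept, and the kept probe of highest mean stood for a locus (24973 units). limma 3.58.1 (R 4.3.3; lmFit and eBayes) compared 4 arrays with 4 in two-sided tests, and p-values were adjusted across all units by the Benjamini-Hochberg method. Adjusted p-values come from that model, or from its refit where an alternative setting is named. The fit was also run on simulated data, and the outcome is not reported here. Alternatives are given in the closing section. The files held no mean spot signal, so normexp (offset 50) used the median signal. The offset was added to every signal, which makes the folds of dim spots smaller, among them those of CYP76M5, CYP76M8 and KSL7. Raising signals to the floor was added after seeing the data. Levels of different probes were not compared.

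The cluster loci and gene lists were chosen with earlier results of these data known. Named genes are all 10 cluster loci, up to 4 called units per list with the largest change, and 2 rising and 2 falling flanking loci. A planned search for transcripts that track CPS2 was not made, since CPS2 was above background on no array, and promoter and probe sequences were not used here. Gene symbols were taken where a gene's place in the RefSeq table was within 3 percentage points of the locus's rank on its chromosome. The reported fit did not pair arrays by replicate number. The deviations of same-numbered arrays from their group means correlated at 0.32, -0.01, 0.10 and 0.07 for replicates 1 to 4. Differently numbered arrays were not compared in this way, so these values do not settle whether the numbers pair the arrays. The number of arrays limits the precision, as do signals near background.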

Additional observations from a re-analysis of the deposited data

How the results depend on the processing

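The 5 called cluster loci kept their direction and their call in all settings that tested them. Asking for all 8 arrays well above background dropped CYP76M5, CYP76M8, KSL7 and Os02g0571800 and left 2 cluster loci lower and 0 higher by limma, against 4 and 1 as reported. Normexp with quantile normalization called 2 higher, as did leaving out 1 mM replicate 3. Leaving out 1 array at a time gave 1 to 2 higher and 4 to 4 lower. Over all units, 4883 were higher and 14733 lower without scaling, 4021 and 16080 with spike-in scaling and 12138 and 15494 with every probe as a unit, against 8049 and 10946 as reported. Leaving out 1 array gave 7660 to 7978 higher and 10492 to 10988 lower. For the 28 genes of the pathway lists, 9 higher and 11 lower as reported, the counts were 7 and 17 without scaling, 7 and 18 with spike-in scaling, 17 and 25 probes with every probe as a unit, and 7 to 9 higher and 10 to 11 lower leaving out 1 array. Flanking loci numbered 6 higher without scaling, 5 with spike-in scaling, and 20 probes lower with every probe as a unit, against 10 higher and 13 lower. Leaving out 1 array gave 10 to 11 higher and 11 to 14 lower. CLA1 reversed to -0.14 without scaling, -0.25 with spike-in scaling and -0.38 with the mean of its probes, and lost its call in 6 of 8 leave-outs. The causes of these shifts were not tested. Whether the replicate numbers pair the arrays was not settled. With replicate as a block, 8109 units were higher and 11014 lower, and the cluster counts stayed at 1 and 4. Among the genes named by the stated rule, only CLA1 lost its call in that limma fit (adjusted p = 0.0932). The slide could not be fitted as a block, since each slide holds 1 group. Signals near background limit CYP76M5, CYP76M8 and KSL7 in size, and CPS2, CYP71Z6 and Os02g0571300 entirely.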
